A study of Mus musculus with 8 samples.

Results

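The clustered protocadherins are cell surface proteins of the cadherin superfamily that are encoded side by side in 3 clusters, alpha, beta and gamma. They were chosen by symbol, as all genes of the table whose name gives a member of 1 of the 3 clusters. This gave 58 of 55414 genes, 14 in the alpha cluster, 22 in the beta cluster and 22 in the gamma cluster. All 58 identifiers were found in GENCODE release M21 on GRCm38, where the genes lie on the plus strand of chromosome 18 between 36930184 and 37841873; 1 of them carries another symbol there.

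Clustered protocadherins let neurons tell their own processes from those of other neurons. Each neuron switches on a subset of the promoters, through the architectural protein CTCF and cohesin, and the encoded proteins bind like to like between cells. Every alpha gene joins its own large first exon to constant exons shared by the alpha cluster, and every gamma gene does the same with the constant exons of the gamma cluster, whereas a beta gene has no constant exon. The last genes of the alpha and gamma clusters, the C-type genes, are used more constitutively than the rest. In nervous tissue the family is known for dendrite self-avoidance, axon arborisation and the survival of interneurons.

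The study, by its title, addressed what reduced Emb does to developing neurons of the enteric nervous system, which lies within the wall of the gut. Its product embigin is a transmembrane glycoprotein with immunoglobulin domains. The 8 libraries came from colon cells of 4 WT and 4 Emb knockdown mice aged 4 weeks, sorted with antibodies to CD24 and CD56 into tubes of about 250 cells, with 4 libraries per genotype. How the knockdown was made, and in which cells, was not given in the sources used here. Whether 1 tube corresponds to 1 animal is not stated, and p-values then measure only the spread between these libraries, which may be technical. In bulk libraries of sorted cells, fewer cells of a type and less RNA per cell cannot be told apart.

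The genotypes differed in depth, which bears on every value below. The libraries held 698930 to 954191 counts in WT and 2024372 to 2712754 in Emb knockdown, a ratio of group means of 2.97. The 18S ribosomal RNA gene Rn18s-rs5 took 3.55% to 13.0% of them in WT and 29.2% to 42.5% in Emb knockdown, and without it the ratio of depths was 2.05. Emb, at 4, 6, 22 and 16 counts in WT and 5, 25, 3 and 5 in Emb knockdown, had a log2 fold change of -1.24 ± 0.82 (SE; edgeR adjusted p = 0.530), so the targeted gene did not separate the labels. Of the markers of enteric neurons, all 15 had counts in both groups, but the median marker lay at 1.03 times the level per kilobase of a set of olfactory and related receptor genes, used below as a background, for WT and at 1.67 times for Emb knockdown. Markers of other cells of the gut wall were present too. Of 10 glial markers the median lay at 5.71 times that background among WT libraries and at 23.7 times among Emb knockdown libraries. The 10 macrophage markers together had 1814 to 6734 and 3470 to 5408 CPM, but their median lay at 5.37 times the background in WT and at 72.6 times with Emb knockdown. Of the 9 tested, 8 had higher and 1 lower values (median log2 fold change 1.41), 5 and 1 of them with an unadjusted p under 0.05; the lower one, Itgam, had 3384 ± 1775 and 351 ± 207 CPM. The 10 epithelial markers summed to 251 to 430 and 341 to 459 CPM, and the 12 markers of mesenchyme and vessels 467 to 1934 and 435 to 1468. The part of these cells in the protocadherin counts was not tested.

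Nearly all clustered protocadherin counts belonged to 3 genes, Pcdhga12 and Pcdhgb8 of the gamma cluster and Pcdhb17 of the beta cluster. Together they held 98.0% to 98.4% of the counts of all 58 members in WT and 92.8% to 95.9% in Emb knockdown. Pcdhga12 alone made up 95.95% to 97.7% of the gamma counts over the 8 libraries. Pcdhb17 made up 88.0% to 93.0% of the beta counts in WT and 45.7% to 72.6% in Emb knockdown. The other 55 members shared 775 counts over the 4 WT libraries and 1965 over the 4 Emb knockdown libraries. Pcdhga10 was the 1 member with 0 counts in every library.

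To set genes of different length side by side, each count was divided by the exonic kilobases that belong to that gene alone in M21, and then by the same quantity summed over 1505 olfactory, vomeronasal and trace amine receptor genes in the same library, which colon cells are not known to use broadly. On this scale of levels Pcdhga12 lay at 1390 to 2029 times the background among WT libraries and at 791 to 1445 times among Emb knockdown libraries. Pcdhb17 lay at 93.7 to 129 and 42.7 to 67.2 times, and Pcdhgb8 at 40.9 to 55.9 and 23.1 to 38.5 times. The median of the other 54 members with a base of their own lay at 0.587 ± 0.098 times in WT and 0.906 ± 0.251 times in Emb knockdown (SD over n = 4 libraries each). The median of 21747 protein-coding genes lay at 0.981 ± 0.198 and 1.65 ± 0.15 times. Thus 3 members stood far above the summed receptor level in every library. The median of the others, averaged over the libraries of a genotype, lay below that level. By group means, the highest receptor gene lay at 245 times in WT and 146 times in Emb knockdown, above Pcdhb17 and Pcdhgb8. The median receptor gene itself lay at 0.113 times in WT and 0.360 times in Emb knockdown. Averaged over its group, Pcdhb13 in Emb knockdown was the only other member at 5 times the background or more.

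**Figure D1:**
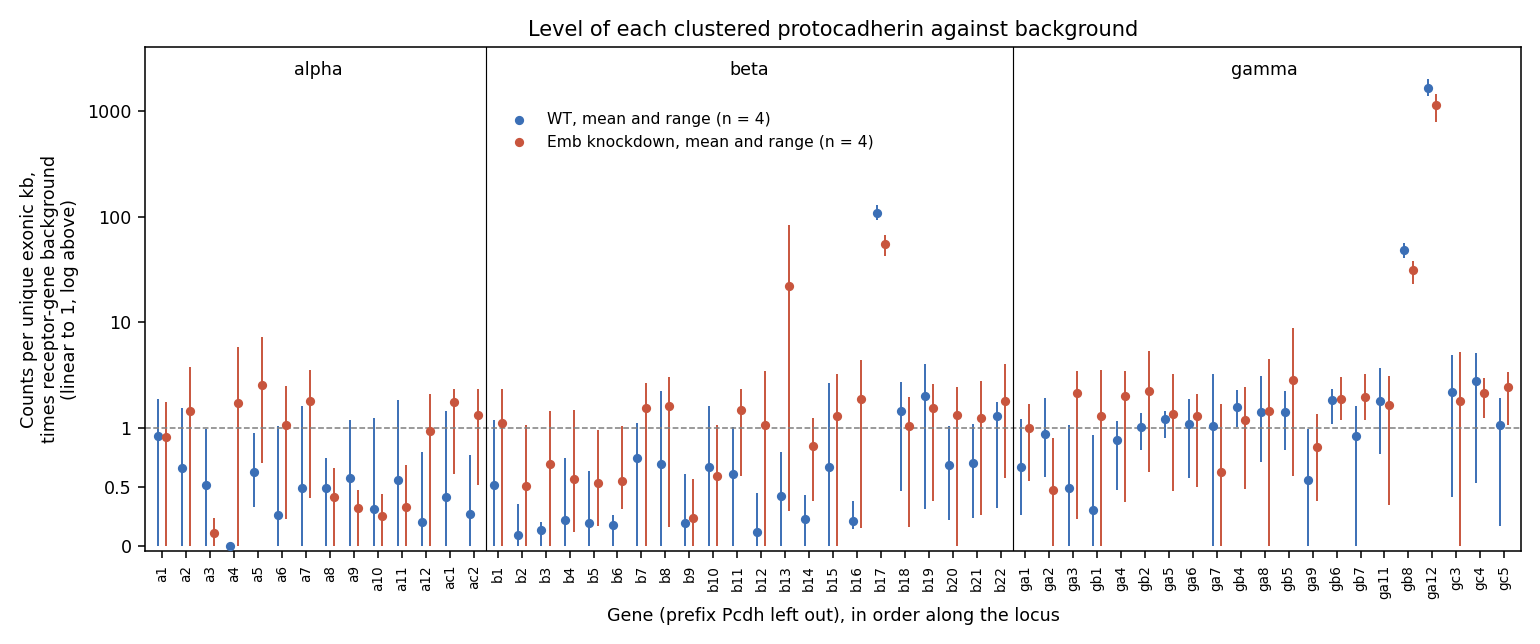
Level of the 57 members with an exonic base of their own, in order along the locus; the vertical axis gives counts per unique exonic kilobase as a multiple of the receptor-gene background (linear up to 1, log above), points are means and lines the range over 4 libraries per genotype. Pcdhga12, Pcdhb17 and Pcdhgb8 stand at 23.1 times the background or more in every library, while the median of the other 54 is 0.587 in WT and 0.906 in Emb knockdown (dashed line at 1).

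How the counts were assigned limits what can be said of the alpha and gamma genes. Inside the span of the clusters, 8 genes of the table have no exonic base of their own in M21, Pcdhga10 among them, and all 8 had 0 counts in every library. The 77 other genes of the span, which have such bases, all had counts. Whether reads in the shared constant exons were counted for any member was not tested, and an alpha or gamma count may rest on that gene's own first exon and any unshared bases alone. Unshared lengths ran from 404 to 3028 bases in the alpha cluster, from 1107 to 8695 in the beta cluster and up to 4614 in the gamma cluster. The counting tool and its strand setting were not given in the sources used here, so reads from antisense genes of the span cannot be told apart, and members with near-identical stretches are uncertain for the same reason.

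Pcdhga12 (ENSMUSG00000102428; GRCm38 chromosome 18, 37765580 to 37841873, protein coding) is the last gamma gene before the C-type genes. It had 9001, 7407, 12899 and 9046 raw counts in WT replicates 1 to 4. In Emb knockdown it had 7617, 8597, 7518 and 8180, in the same order of replicates, which holds for all such lists of values. The raw counts of the genotypes overlapped, and the highest belonged to a WT library, although the Emb knockdown libraries were deeper. The ratio of mean raw counts, Emb knockdown over WT, was 0.832, against a ratio of depths of 2.97. As a share of the total count Pcdhga12 therefore took 0.874% to 1.35% in WT and 0.285% to 0.373% in Emb knockdown.

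Pcdhgb8 (ENSMUSG00000103081; 37761801 to 37841870, annotated as a polymorphic pseudogene) is the gene directly before Pcdhga12. It had 183, 132, 222 and 151 raw counts in WT and 123, 140, 133 and 136 in Emb knockdown. These counts ran parallel to those of Pcdhga12 and again overlapped between the genotypes. For every 100 counts of Pcdhga12 there were 1.67 to 2.03 of Pcdhgb8 in WT and 1.61 to 1.77 in Emb knockdown.

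Pcdhb17 (ENSMUSG00000046387; 37484795 to 37489454, a single exon, protein coding) lies in the middle of the locus. It had 706, 564, 940 and 652 raw counts in WT and 400, 455, 459 and 471 in Emb knockdown. Here even the raw counts of the genotypes did not overlap, and the shallower WT libraries held more. For every 100 counts of Pcdhga12 there were 7.21 to 7.84 of Pcdhb17 in WT and 5.25 to 6.11 in Emb knockdown, so the raw count of Pcdhb17 was lower in Emb knockdown by more than that of Pcdhga12.

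The rest of the family had more raw counts in Emb knockdown on average. The summed raw count of the other 55 members was 157 to 289 in WT and 390 to 631 in Emb knockdown, without overlap, a ratio of group means of 2.54. Of the 631, 393 were counts of Pcdhb13 in Emb knockdown replicate 1. Without Pcdhb13 the sums were 155 to 283 in WT and 238 to 518 in Emb knockdown, which overlapped, at a ratio of 1.99. As a share of the total count the 55 genes took 0.0236% ± 0.0046 in WT, against 0.0208% ± 0.0058 with Emb knockdown (SD, n = 4 each), a difference smaller than the spread. Between 11 and 20 of the 58 members had 0 counts in a WT library, and between 1 and 17 in an Emb knockdown library. Emb knockdown replicate 1 had the 17, close to the WT libraries, and replicate 3 the 1.

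**Figure D2:**
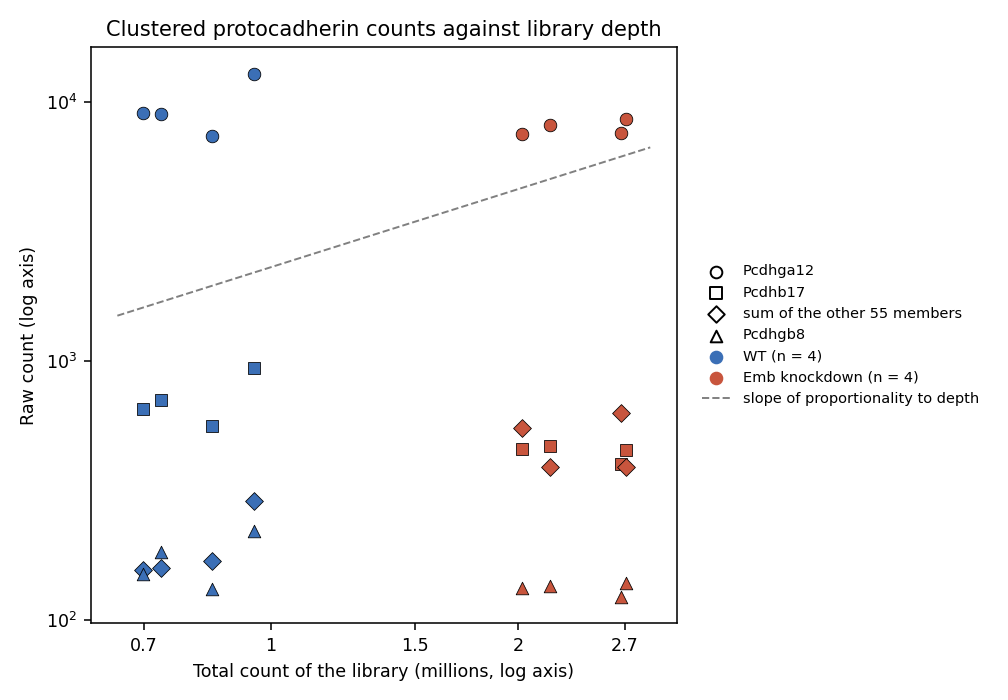
Raw counts of Pcdhga12, Pcdhb17, Pcdhgb8 and the sum of the other 55 members in each library (vertical, log axis) against the library's total count (horizontal, log axis); the dashed line shows the slope of a count proportional to depth. The 3 genes do not climb from WT to the deeper Emb knockdown libraries, while the sum of the others is 157 to 289 in WT and 390 to 631 in Emb knockdown, ranges that overlap once Pcdhb13 is left out (155 to 283 and 238 to 518).

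Since the libraries of the genotypes lie in separate ranges of depth, no correlation of counts with depth was computed over the 8 libraries, and depth and genotype cannot be told apart. Within each genotype the Pcdhga12 counts followed depth in part. In WT the deepest library, replicate 3 (954191), had the highest Pcdhga12 count, 12899. Replicate 2, with the second highest total of 847088, had the lowest. Within Emb knockdown the total counts spanned 2024372 to 2712754 and the Pcdhga12 counts 7518 to 8597. Replicate 3 was lowest and replicate 2 highest in both. Replicate 1, at a total of 2669107, had fewer Pcdhga12 counts (7617) than replicate 4 (8180), at 2190413.

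Other genes of the table ran parallel to Pcdhga12. Likeness was measured over the 8 libraries among the 716 genes with at least 30 counts in every library, as the root mean square difference of the log2 raw counts after each gene's mean was removed, a measure on which library scaling has no effect. Pcdhgb8 was the third nearest gene (0.100) and Pcdhb17 came 39th (0.222). The nearest was Tram1, a protein of the translocon of the endoplasmic reticulum (0.089), with 442, 384, 626 and 449 counts in WT and 435, 423, 340 and 405 in Emb knockdown. Dnm3, a dynamin of synapses, followed at 0.093, then, after Pcdhgb8, the predicted genes Gm13425 and Gm48600, the transcription factor gene Dach2, the predicted gene Gm15266, the histone demethylase gene Kdm5c, the predicted gene Gm12477 and the exosome subunit gene Exosc2 (0.136). Among these 10 genes the ratio of mean raw counts, Emb knockdown over WT, was 0.719 to 0.927, and Gm15266 had as many as 13055 to 21499 counts per library. Chosen after their values were seen, Elavl3, the most abundant of the neuronal markers, was 17th (0.185; 131 to 209 counts in WT and 139 to 187 in Emb knockdown) and the vomeronasal receptor gene Vmn1r13 was 18th (0.186; 1584 to 2228 and 1048 to 1616). Of the 716 genes, 14.5% had a raw count ratio at or below that of Pcdhga12, and the median ratio was 1.66.

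**Figure D3:**
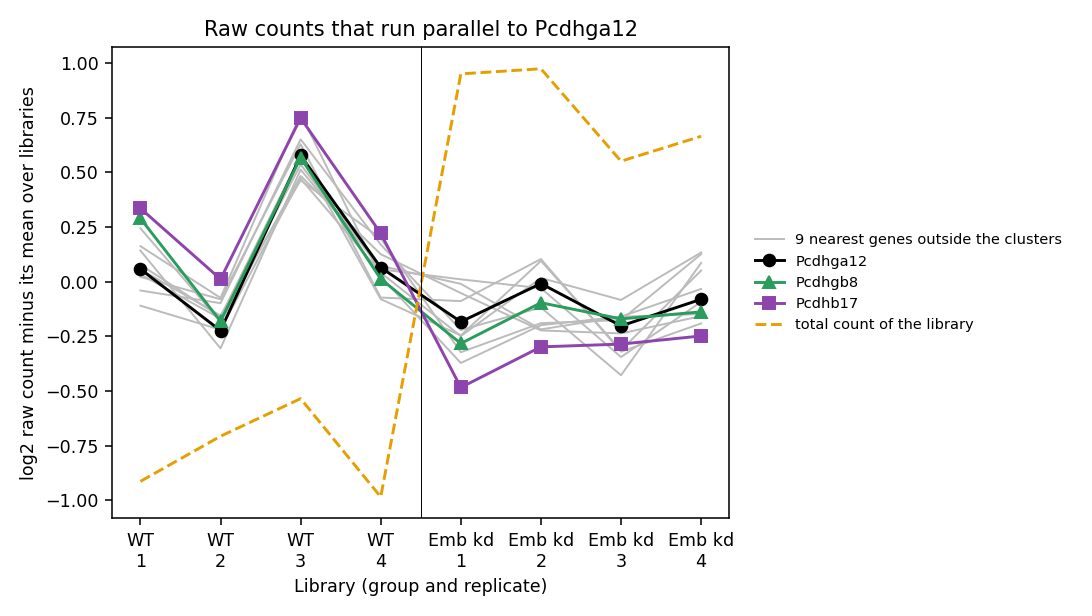
Log2 raw count minus its mean over the 8 libraries (vertical) for each library (horizontal), for Pcdhga12, Pcdhgb8, Pcdhb17, the 9 nearest genes outside the clusters (grey) and the library total (dashed). The grey genes were picked for their likeness to Pcdhga12, so their common course is a description of that choice; Pcdhgb8 and Pcdhb17 also have their highest raw count in WT replicate 3.

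A feature of sequence was compared as a description. Pcdhga12 was the 1 member with a run of at least 20 adenines in an annotated transcript, 41 in length. The longest runs of the other members had 5 to 16 adenines, 7 in both Pcdhgb8 and Pcdhb17. Such a run occurred in 1.44% of the 52081 genes of the table with a transcript in M21 and in 11.4% of the well counted genes that have one. Of the 10 genes nearest to Pcdhga12, 3 had one, Dnm3 (29), Gm48600 (37) and Exosc2 (20). The table gives no position within a gene, so where the Pcdhga12 reads lay was not tested.

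After scaling, the 3 abundant members had lower values in every Emb knockdown library than in any WT library. Values are CPM, counts scaled to a common library size with TMM, which on these libraries gave a ratio of sizes of 1.86. Pcdhga12 had 10313, 7592, 8749 and 11287 CPM in WT and 4525, 4064, 3622 and 4569 in Emb knockdown. The groups stood well apart, at a log2 fold change of -1.18 ± 0.45 (SE), whose 95% interval ran from -2.17 to -0.19 (edgeR adjusted p = 0.321). Pcdhgb8 had 210, 135, 151 and 188 CPM in WT and 73.1, 66.2, 64.1 and 75.96 in Emb knockdown, with a log2 fold change of -1.29 ± 0.60 (edgeR adjusted p = 0.378). Pcdhb17 had 809, 578, 638 and 814 CPM in WT and 238, 215, 221 and 263 in Emb knockdown, with a log2 fold change of -1.60 ± 0.61 (edgeR adjusted p = 0.320). No adjusted p passed 0.05, although none of the 3 genes overlapped between genotypes.

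Across all 11353 genes tested by edgeR, 0% passed after adjustment. An unadjusted p under 0.05 was found for 4.63% with lower values in Emb knockdown, against 8.67% with higher values. Of the 9 members tested, 2 had an unadjusted p under 0.05, Pcdhb17 (0.022) and Pcdhga12 (0.024), both with lower values. Groups did not overlap in 3 of these 9, all lower in Emb knockdown, against 4.24% of all tested genes with Emb knockdown below and 4.04% above. By the DESeq2 Wald test on the same counts, Pcdhga12 (adjusted p = 0.00177), Pcdhb17 (0.00226) and Pcdhgb8 (0.0245) passed as lower, 3 of the 4 members to which DESeq2 gave an adjusted p; DESeq2 called 12.7% of the 5904 genes to which it gave an adjusted p, and 3.78% of the 5904 as lower. The median log2 fold change of all tested genes was 0.04 with TMM and -0.59 with library totals alone, where the 3 members stood at -1.82, -1.92 and -2.22 for Pcdhga12, Pcdhgb8 and Pcdhb17. Scaled to the receptor genes, where the median gene stood at 0.64, they were at -0.54, -0.65 and -0.97. All 3 thus had the same direction under each scaling while its size changed. The median gene shifted by about as much between the scalings, so the distance of the 3 from it stayed nearly the same. On the receptor scale Pcdhga12 overlapped between the genotypes, and Pcdhgb8 and Pcdhb17 did not. The receptor sum leans on Vmn1r13, which ran near Pcdhga12 in likeness and had a log2 fold change of -1.37 with TMM. Vmn1r13 held 1584 to 2228 counts per WT library, where the receptor sum was 5907 to 11106. In Emb knockdown it held 1048 to 1616, where the sum was 6984 to 12595. The same gene is part of every value given against the receptor background.

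The other 6 members tested had fewer counts and no clear difference. Pcdhgc4, a C-type gene known for its part in the survival of spinal interneurons, had 14, 11, 36 and 2 counts in WT and 8, 8, 24 and 15 in Emb knockdown. The genotypes overlapped, and the log2 fold change was -0.94 ± 0.73 (edgeR adjusted p = 0.602). Pcdhgc5, its C-type neighbour, had 6, 1, 18 and 6 counts in WT and 20, 9, 33 and 17 in Emb knockdown, with a log2 fold change of 0.56 ± 0.75 (edgeR adjusted p = 0.783) that was -0.09 with library totals alone. In both genes replicate 3 held the most counts within each genotype. Pcdhgb5 had a log2 fold change of 0.22 ± 0.86 and a count of 52 in Emb knockdown replicate 1 against 5 to 12 in the other libraries of that genotype.

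Among the beta genes, Pcdhb19 had 3, 21, 21 and 31 counts in WT and 19, 5, 43 and 14 in Emb knockdown (log2 fold change -0.87 ± 0.82). Pcdhb18 had 12, 3, 8 and 15 counts and then 1, 11, 23 and 7 (-0.94 ± 0.86). Pcdhb22, the last beta gene, had 13, 14, 4 and 10 counts and then 7, 45, 24 and 6 (-0.11 ± 0.78). All 3 overlapped between the genotypes, and their edgeR adjusted p lay at 0.668 to 0.970. The median log2 fold change of the 9 tested members was -0.94, with 7 lower and 2 higher, beside 48.3% lower among all genes tested; since the 9 passed a filter on low counts, they do not stand for the 58.

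**Figure D4:**
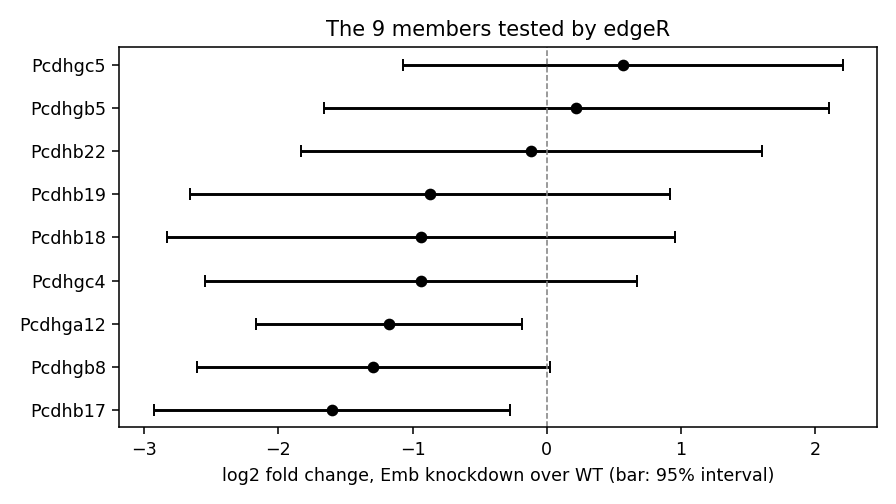
Log2 fold change, Emb knockdown over WT (horizontal), with its 95% interval for each of the 9 members that passed the filter on low counts. The intervals of Pcdhga12 and Pcdhb17 lie below 0, that of Pcdhgb8 ends at 0.02, and those of the other 6 include 0; none passed after adjustment over all genes.

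Pcdhb13 was high in 1 library. It had 2, 0, 6 and 2 counts in WT and 393, 2, 34 and 12 in Emb knockdown, so that Emb knockdown replicate 1 held most of its counts and replicate 2 lay within WT. It did not pass the filter on low counts. Without that filter edgeR gave a log2 fold change of 5.04 ± 1.01 (adjusted p = 0.000244), where 1.88% of all genes were called in either direction and 1.49% as higher; it was the 1 member called there. In the fits that left out 1 WT library, in which it was tested, the adjusted p of Pcdhb13 was 0.409 to 0.470.

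The alpha cluster was the least counted. Its 14 genes had 11 to 33 raw counts in a WT library and 16 to 93 in an Emb knockdown library, and none passed the filter. Their summed level was 20.1 ± 5.9 CPM (SD, n = 4) in WT and overlapped with that in Emb knockdown, 30.4 ± 17.5 CPM (n = 4). Per unshared kilobase the cluster lay at 0.270 to 0.660 times the receptor genes' level in WT, and at 0.410 to 1.79 times with Emb knockdown. Its pair of C-type genes lay at 0.335 ± 0.263 times in WT and 1.54 ± 0.80 times in Emb knockdown, and their genotypes overlapped. Pcdhac1 had 5, 0, 1 and 0 counts in WT and 2, 11, 11 and 10 in Emb knockdown, and Pcdhac2, known for the tiling of serotonergic axons, had 0, 3, 0 and 1 and then 2, 13, 5 and 9. Pcdha5 had 3, 1, 2 and 2 counts in WT and 4, 3, 5 and 29 in Emb knockdown. Pcdha1, Pcdha2 and Pcdha7, the others of the most counted alpha genes, had 0 to 22 counts per library. Pcdha4 had 0 of 3234368 counts in WT, which allows up to 0.928 CPM of the total, above the 0.521 CPM of its 5 counts in Emb knockdown, so no difference was detectable at this depth; such limits cover counting error only, since the reads were amplified and carry no molecular identifiers.

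The beta cluster as a whole had 788 ± 135 CPM in WT against 386 ± 95 in Emb knockdown, a log2 ratio of -1.03. Without Pcdhb17, the other 21 genes had 48.2 to 94.8 CPM in WT and 81.8 to 282 in Emb knockdown, a ratio of 1.94, and without Pcdhb13 as well the ratio was 1.15. The CPM ranges of the 21 genes overlapped between the genotypes. Their raw counts did not, at 71 to 80 in WT and 173 to 475 in the deeper Emb knockdown libraries, nor did they without Pcdhb13, at 65 to 78 and 82 to 266. The median of the 21 genes per unshared kilobase lay at 0.286 ± 0.099 times the background for WT, against 0.735 ± 0.336 times for Emb knockdown.

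The gamma cluster as a whole had 9745 ± 1668 CPM in WT against 4343 ± 444 in Emb knockdown, a log2 ratio of -1.17. Without Pcdhga12 the ratio was -0.81 on the log2 scale, and without Pcdhgb8 as well it was -0.17, with 67.6 to 125 CPM in WT and 66.5 to 88.7 in Emb knockdown. Gamma genes outside this pair had a higher median than the alpha and beta genes in WT. It was 1.01 ± 0.27 times the summed receptor level, against 0.187 ± 0.218 for alpha genes and 0.286 ± 0.099 for beta genes without Pcdhb17. The median receptor gene lay at 0.113 times. In Emb knockdown the medians of these gamma, alpha, beta and receptor genes were 1.30 ± 0.24, 0.683 ± 0.656, 0.735 ± 0.336 and 0.360 times. Counted in every library were 13 of 22 gamma genes, 6 of 22 beta genes and 1 of 14 alpha genes. The C-type gene Pcdhgc3, known for dendrite branching in the cortex, had 1, 6, 18 and 2 counts in WT and 1, 5, 22 and 0 in Emb knockdown; it too was highest in replicate 3 of each genotype.

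**Figure D5:**
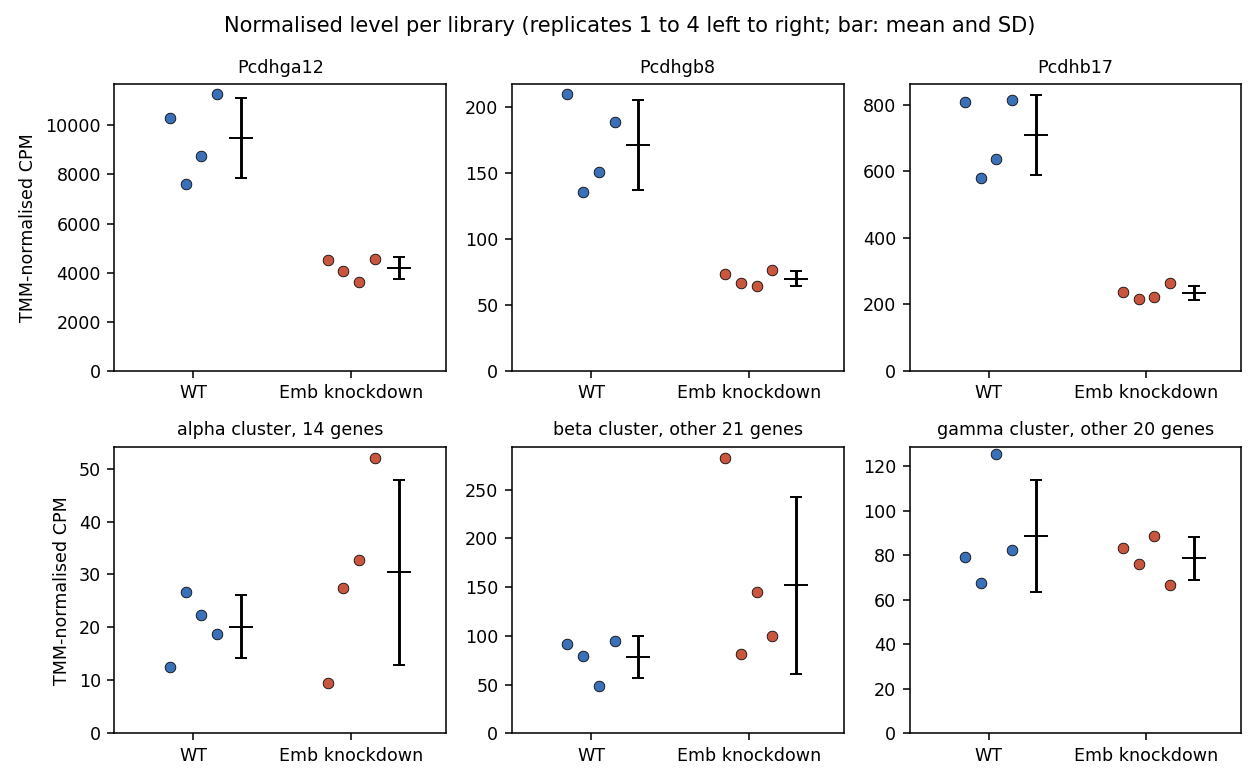
TMM-normalised CPM (vertical) per library for the 3 most counted members and for the summed remaining genes of each cluster, 4 libraries per genotype, with the mean and SD beside the points. The 3 single genes do not overlap between genotypes, whereas the 3 sums do.

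Over the 55 members outside the abundant 3, mean CPM was higher in Emb knockdown for 32 and lower for 22. Among all 48530 genes of the table with a count, 50.7% were higher and 49.3% lower. None of the 55 had groups without overlap. Their summed level was 187 ± 11 CPM in WT and 261 ± 83 in Emb knockdown, a ratio of 1.39, and 1.06 without Pcdhb13.

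Other genes of the family and its regulation were taken from lists, and 0 passed the adjusted p by edgeR, as did 0 of all 11353 genes, of which 984 higher and 526 lower had an unadjusted p under 0.05. Over all genes the median log2 fold change stood at 0.04. Of 12 protocadherins outside the clusters 11 were tested, 6 higher and 5 lower in Emb knockdown, with a median log2 fold change of 0.21 and 1 unadjusted p under 0.05. Pcdh17, an adhesion protein of axons, had 23.5 ± 22.7 CPM in WT against 139 ± 240 in Emb knockdown, where replicate 4 alone had 499.9, and Pcdh9 5.64 ± 2.94 and 21.7 ± 11.8 (log2 fold change 1.92 ± 0.70, edgeR adjusted p = 0.312). Of 18 genes for promoter choice and chromatin, 11 were higher and 7 lower (median 0.32), 2 and 1 of them with an unadjusted p under 0.05. The 2 higher were Wapl and Tet1 (log2 fold change of Tet1 1.67 ± 0.70). The 1 lower was Lbr (-4.24 ± 1.70), whose WT mean rested on replicate 1 (1074 CPM). Stag2, a cohesin subunit, had 427 ± 147 CPM in WT against 159 ± 48 in Emb knockdown without overlap (log2 fold change -1.42 ± 0.66, edgeR adjusted p = 0.378), and Wapl, which releases cohesin, 12.7 ± 8.1 and 540 ± 1006 (5.40 ± 1.61, edgeR adjusted p = 0.295), with 2049 CPM in Emb knockdown replicate 2 and 19.3 to 59.2 in the other libraries of that genotype. Scaled by library totals, which put the median gene of the table at -0.59, these list medians were -0.36 and -0.27.

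The cytoplasmic domains of clustered protocadherins act through kinases and the actin-regulating WAVE complex, and the ectodomains are shed by Adam10. Of 19 such genes 16 were tested, 8 higher and 8 lower (median -0.05), with 3 and 2 at an unadjusted p under 0.05. Adam10 had 2.64 ± 2.72 CPM in WT against 14.9 ± 6.6 in Emb knockdown without overlap (log2 fold change 2.37 ± 0.86, edgeR adjusted p = 0.312). These values rest on low raw counts, 3, 1, 9 and 0 in WT and 37, 23, 39 and 14 in the deeper Emb knockdown libraries. The focal adhesion kinase gene Ptk2 (-2.59 ± 0.96) and the WAVE subunit gene Nckap1 (-3.77 ± 1.33) had lower mean values and overlapped; their WT means rested on replicate 1 (192.5 CPM) for Ptk2 and replicate 2 (340.3 CPM) for Nckap1. Of the 16 genes that flank or interrupt the locus, 8 were tested, 5 higher and 3 lower, with a median log2 fold change of 1.55 that was 0.56 without Emb knockdown replicate 4 and 0.91 without replicate 3. Ik, a splicing factor gene, had 35.8 ± 21.6 CPM in WT against 100.1 ± 38.2 in Emb knockdown (1.49 ± 0.68), and Zmat2, another splicing factor gene, 11.8 ± 5.1 and 45.3 ± 19.9 (1.91 ± 0.63). Ik did not overlap between the genotypes, and Zmat2 did. Of 10 classical cadherins 8 were tested, 5 higher and 3 lower (median 0.22), among them Cdh2, the neural cadherin, at 45.4 ± 30.7 and 121 ± 74 CPM (1.42 ± 0.77). With library totals alone the median of the cadherins was -0.45 and that of the flanking genes 0.94, and the median of the signalling genes was 0.47 without WT replicate 2.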

How the data were processed

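Sorted colon cells of 8 tubes were sequenced, and the authors deposited the result as raw gene counts, in whole numbers, in 1 table. Per the labels' protocols, the kit was of the Smart-seq type, for small RNA inputs. Per the submitters' processing notes, cutadapt and the genome build mm10 were used; aligner, counter, strand setting and annotation release were not given in the sources used here. Gene models came from GENCODE M21.

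Counts were fitted with edgeR 4.0.16 in R 4.3.3 (filterByExpr, minimum count 10 and minimum total 15; TMM; robust quasi-likelihood, group as the only term), with Benjamini-Hochberg adjustment over 11353 genes. A standard error is the fold change (log2) divided by the root of the F statistic. DESeq2 1.42.0, limma 3.58.1 voom, other scalings, no filter and left-out libraries were alternatives. The fit was also run on simulated counts, from which nothing is drawn here. Members and lists were chosen with earlier results of these data known. Named genes are Emb; the 5 members with the highest mean CPM in each cluster, the C-type genes, the 5 with the smallest unadjusted p in each direction and those without overlap at a mean of at least 1 CPM; of each list, up to 3 with the smallest p and 2 with the highest mean; and up to 3 markers per list by mean. A part of these is printed for the lists. The receptor-gene background and the likeness measure were chosen after seeing the data. The summed level of the glial markers is not reported here.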

Additional observations from a re-analysis of the deposited data

Results flagged for a closer look

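In 5 cases 1 of the 4 libraries of a genotype lay far from the other 3 in CPM, by Dixon's ratio, among 46 groups of 4 looked at. The ratio's rate of about 1 group in 20 by chance holds for normally distributed values, not for low counts. Pcdhb13 and Pcdha5 were looked at for their high mean, to which the marked library itself contributed. The number of cases can therefore not be set against that rate. Pcdhb13 had 233 CPM in Emb knockdown replicate 1 against 0.945 to 16.4 in the other libraries of that genotype. Pcdhgb5 had 30.9 CPM in the same library against 2.36 to 5.78. Pcdhac1 had 1.19 CPM there against 5.20 to 5.58, and 5.73 CPM in WT replicate 1 against 0 to 0.678. Pcdha5 had 16.2 CPM in Emb knockdown replicate 4 against 1.42 to 2.41. The values of Pcdhac1 and Pcdha5 rest on 29 counts or fewer. None of the summed cluster levels was marked in this way.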

How the results depend on the processing

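The number of members past the adjusted p was 0 by edgeR and stayed 0 under limma voom, the other scalings and each left-out library (0 to 0); it was 1 with no filter (Pcdhb13) and 3 by DESeq2 (Pcdhga12, Pcdhgb8 and Pcdhb17). Over all genes the calls were 0 by edgeR, 910 with no filter, 749 by DESeq2, 2 scaled to the receptor genes and 1 with totals outside Rn18s-rs5. The beta log2 ratio was -1.67 with library totals, -0.38 scaled to the receptor genes and 0.96 without Pcdhb17. The gamma log2 ratio was -1.81, -0.53, then -0.81 without Pcdhga12 and -0.17 without Pcdhgb8 too. The log2 ratio of the members' share of the total, -1.79, was -1.26 outside Rn18s-rs5 and -0.18 without the 3 abundant members. With 1 library left out these ran from -1.20 to -0.88 (beta), -1.19 to -1.003 (gamma) and -1.91 to -1.72 (share). The alpha log2 ratio stayed above 0 under all 13 alternatives run for it (0.02 to 1.13). With library totals the list medians were -0.36 (protocadherins outside the clusters), -0.27 (promoter choice and chromatin), -0.77 (cytoplasmic signalling and shedding), 0.94 (flanking genes) and -0.45 (classical cadherins). With 1 library left out they ran from 0.033 to 1.16, 0.08 to 0.61, -0.57 to 0.47, 0.56 to 1.59 and 0.13 to 0.71. Pcdhb22 changed sign scaled to the receptor genes (0.49), with no filter (0.14) and with libraries left out (-0.76 to 0.19). Pcdhgb5 did so with library totals (-0.64), the replicate block (-0.46) and voom (-0.54), and Pcdhgc5 with library totals (-0.092). The causes were not tested. Receptor scaling and the removal of Pcdhb17, of Pcdhgb8 and of the 3 members together were chosen after seeing the data. Low counts limit every member but those 3.

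Replicate numbers were not treated as pairs in the main fit. Deviations of same-numbered libraries correlated at 0.0337, 0.0171, 0.0113 and 0.0193, and those of other pairs at -0.0406 to 0.0178. Not every library correlated best with its own number, and values this small cannot decide whether the libraries were paired. With the replicate block, Pcdhb17 had a log2 fold change of -1.59 (edgeR adjusted p = 0.606), and 0 members and 0 genes were called, as without it.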
